A study of Mus musculus with 24 samples.

Results

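Genes that mark T, NK and B lymphocytes were followed in epididymal fat and in liver, in mice with and without GPR120, a fatty acid receptor encoded by Ffar4. The set is a list of 33 gene symbols (18 T, 8 NK and 7 B genes), and a gene was read through probe sets annotated to its symbol alone. This gave values for 31 of the 33 genes, 17 T, 7 NK and 7 B genes, out of 18193 genes on the array. Lck and Klrb1c had no probe set of their own among the values used and were not analysed here.

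Affymetrix arrays measured 12 mice, and each mouse gave fat and liver. The 4 groups of 3 mice were GPR120 knockout (KO) mice on high-fat diet (HFD; mice 427, 428 and 429), wild-type (WT) mice on HFD (546, 547 and 560), KO mice on normal diet (ND; 718, 719 and 720) and WT mice on ND (686, 687 and 690), all on a mixed 129/Sv and C57BL/6 background. The labels name no age, no length of diet and no part of the gene that was deleted. By its title the study concerns the role of GPR120 in diet-induced obesity. The comparisons are KO with WT on each diet, HFD with ND in each genotype, and fat with liver.

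T cells recognise antigen through a receptor whose CD3 chains signal through the kinases Lck and Zap70, helped by the coreceptors CD4 and CD8. NK cells and cytotoxic T cells kill with perforin and granzymes, and B cells carry an IgM receptor with the CD79 signalling chains and turn into antibody-secreting plasma cells. All of these cells live in small numbers in fat and liver, where they are known to gather around dying fat cells during obesity and to pass through the liver sinusoids. Several of the listed genes are also used by other leukocytes: Cd72, Il7r and Rgs1, for instance, can be expressed by myeloid cells.

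Values are MAS5 signals in intensity units on a linear scale, scaled by the authors so that every array has about the same trimmed mean. A probe set of one gene cannot be compared in level with that of another, so levels are compared for the same gene only. A gene was tested in a tissue if its mean log2 signal reached that of the median probe set, a signal of 19.3 in fat and 13.0 in liver, called the filter level here. In fat 10 of the 31 genes passed and in liver 13, and 8 passed in both. A gene can pass through 1 bright group, so counts over the genes that passed describe those genes only, and a second fit of all 18193 genes is given beside them. Differences are log2 ± SE from limma with Benjamini-Hochberg adjustment over all genes tested, called at an adjusted p under 0.05.

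The defining T cell genes were dim. In fat Cd4 read 0.86 to 2.75 on the 12 arrays, Cd8b1 0.30 to 14.4, Cd3e 1.70 to 17.2 and Foxp3, the factor of regulatory T cells, 1.90 to 8.89, all under the filter level on every array. Cd3d reached it on 3 fat arrays, mice 427, 429 and 547, and Cd3g on mice 427 and 428. In liver Cd3d, Cd3g, Cd4, Cd8b1, Cd2 and Ltb fell under the filter level as means and Cd4 read 1.10 to 9.05. Of the B genes Cd79a stayed at or under 11.8 in fat. Only a part of the list was therefore measured well in whole tissue, and a lower signal from fewer cells of a type cannot be told apart from less RNA per cell.

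The arrays differed in other ways. Ffar4 itself read 23.1 to 30.5 in KO fat on HFD, against 97.3 to 171 in WT fat on HFD (log2 -2.27 ± 0.21, adjusted p = 0.000215). On ND Ffar4 read 33.7 to 35.7 in KO fat, against 58.3 to 73.7 in WT fat, without overlap but not called (log2 -0.90 ± 0.21, adjusted p = 0.111). In liver, where Ffar4 did not pass the filter, it went against the label on HFD, at 13.5 to 18.3 in KO mice, against 0.55 to 1.63 in WT mice (adjusted p = 0.0336 without the filter), and on ND it read 21.5 to 36.8 in KO mice, against 1.07 to 17.3 in WT mice (adjusted p = 0.0946). The labels do not say which part of the gene was deleted, so whether this probe set lies in it is unknown. KO and WT liver below mean the libraries labelled so, and the liver directions rest on those labels alone. Fat arrays on ND carried epididymis and sperm transcripts, with a summed signal of 32097 to 54978, against 26.1 to 3626 on HFD. Among HFD fat arrays mouse 427 (KO) stood apart with a summed epithelial signal of 2379, and mouse 547 (WT) with a summed skeletal muscle signal of 4171. Mouse 427 also had the epididymis and sperm sum of 3626, against 26.1 to 284 on the other HFD fat arrays. Median signals were 13.4 to 25.7 per array, and Spearman's rho between arrays of the same group lay between 0.889 and 0.964. With 3 arrays a group, precision is limited by their number.

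Of the genes that rose in KO fat, Cd72, Il7r and Cd22 had a start-site window in the RefSeq table (GRCm38.p6), which held windows for 19 of the 31 genes. The 300 bases from 250 before to 50 after the start are printed here 5′ to 3′ on the gene's strand because these genes moved together: Cd72 at chr4:43454577-43454876 (minus strand), Il7r at chr15:9529827-9530126 (minus strand) and Cd22 at chr7:30878979-30879278 (minus strand). Capitals mark 2 motifs searched on both strands, AGGAAGT (other strand ACTTCCT), a core bound by ETS-family factors such as PU.1, and TGTGGTTT (other strand AAACCACA), a RUNX-type core.
Cd72: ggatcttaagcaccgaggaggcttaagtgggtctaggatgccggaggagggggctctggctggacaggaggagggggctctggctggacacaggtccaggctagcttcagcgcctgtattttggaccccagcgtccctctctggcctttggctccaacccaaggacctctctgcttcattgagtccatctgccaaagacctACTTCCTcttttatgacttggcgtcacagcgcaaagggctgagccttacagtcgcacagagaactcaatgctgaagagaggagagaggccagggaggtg
Il7r: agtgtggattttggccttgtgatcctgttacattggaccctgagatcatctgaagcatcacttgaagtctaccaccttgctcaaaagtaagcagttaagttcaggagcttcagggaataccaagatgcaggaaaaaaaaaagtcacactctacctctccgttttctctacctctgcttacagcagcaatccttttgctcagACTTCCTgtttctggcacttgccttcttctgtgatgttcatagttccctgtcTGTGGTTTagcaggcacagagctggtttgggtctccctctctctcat
Cd22: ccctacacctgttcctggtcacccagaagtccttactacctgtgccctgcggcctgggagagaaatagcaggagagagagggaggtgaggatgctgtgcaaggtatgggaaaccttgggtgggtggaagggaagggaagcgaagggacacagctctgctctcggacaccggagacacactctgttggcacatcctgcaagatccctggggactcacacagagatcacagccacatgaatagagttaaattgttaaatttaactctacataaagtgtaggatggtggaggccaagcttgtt
AGGAAGT lay at position -49 from the start in both Cd72 and Il7r, on the opposite strand to the gene. It was in 9.35% of all 32851 windows of this length. Of the 19 listed genes with a window, 8 had it in at least 1 window, a count by gene and not by window. The share of all genes by such a count was not computed, so counts by gene cannot be set against shares of windows. TGTGGTTT lay at position 4 in Il7r and was in 1.78% of all windows and, by the same count by gene, in 2 of the 19 genes. The capitals of the motifs in one window did not overlap, and the Cd22 window held neither word. A match describes letters and is no evidence of binding.

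In fat on HFD, 4 listed genes were higher in KO than in WT mice: Cd72, Rgs1, Il7r and Cd22. 1 was lower, Zap70, and its call rests on 1 of 3 probe sets. The 5 calls were among 10 genes tested, where 22.5% of all 11613 genes tested were called, 11.1% as higher and 11.4% as lower. Each of the 4 genes was higher in every KO mouse than in every WT mouse.

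Rgs1, a regulator that shortens signalling from chemokine receptors in T and B cells, read 942, 977 and 1702 in KO fat on HFD, against 72.4, 168 and 86.6 in WT fat on HFD. The lowest KO array was above the highest WT array, WT mouse 547. The difference was 11.4-fold (log2 3.51 ± 0.41, adjusted p = 0.000513). Il7r, the receptor chain for the T cell survival factor IL-7, read 559.6, 903 and 1508 in KO fat on HFD, against 50.7, 213 and 62.5 in WT fat on HFD. Again WT mouse 547 was the highest of its group. The difference was 10.4-fold (log2 3.38 ± 0.55, adjusted p = 0.00205), and without mouse 547 it was log2 4.02. A second Il7r probe set moved the same way, with 106, 126 and 261 in KO mice against 6.43, 39.4 and 20.9 in WT mice.

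Cd72, an inhibitory coreceptor of the B cell receptor, read 179.5, 224 and 466 in KO fat on HFD, against 16.9, 32.1 and 16.1 in WT fat on HFD. The WT arrays lay near the filter level of 19.3. The difference was 12.9-fold (log2 3.69 ± 0.36, adjusted p = 0.000243). Cd22, an inhibitory lectin of B cells that binds sialic acid, read 96.5, 79.2 and 141 in KO fat on HFD, against 29.9, 51.0 and 19.9 in WT fat on HFD. The groups did not overlap. The difference was 3.28-fold (log2 1.71 ± 0.43, adjusted p = 0.0151). The Cd22 call was lost without KO mouse 429 (log2 1.48, adjusted p = 0.0665) or WT mouse 560 (log2 1.39, adjusted p = 0.0640).

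**Figure D1:**
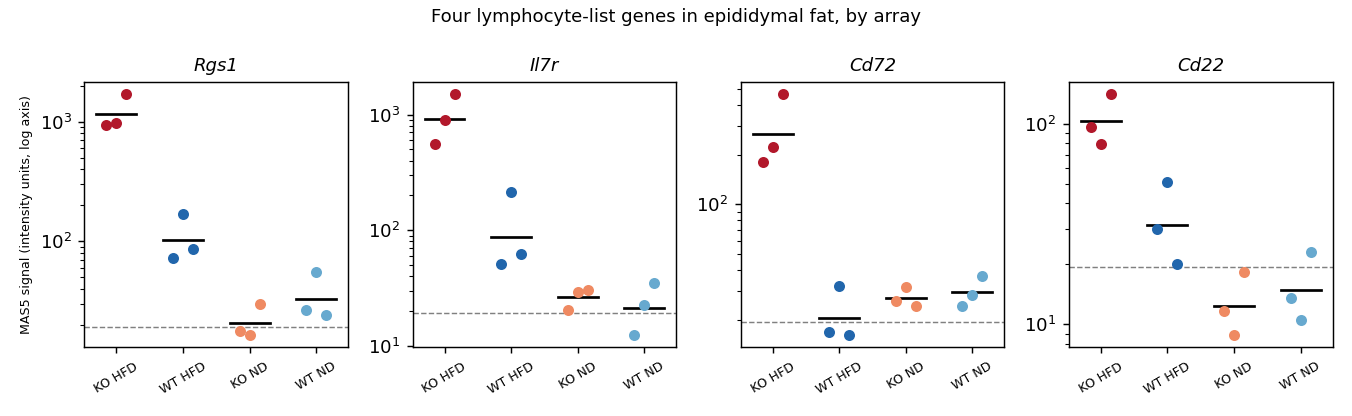
MAS5 signal (intensity units, log axis) of Rgs1, Il7r, Cd72 and Cd22 in epididymal fat, 1 point per mouse, black bars the geometric mean of 3 mice and the dashed line the filter level of 19.3. In every panel the 3 KO HFD points lie above all others, and for Rgs1 they span 942 to 1702 against 72.4 to 168 in WT HFD mice.

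Zap70, the kinase that carries the T cell receptor signal, read 30.7, 53.4 and 30.4 in KO fat on HFD, against 157, 60.5 and 207 in WT fat on HFD. The groups did not overlap, and the brightest probe set gave log2 -1.77 ± 0.52 (adjusted p = 0.0323). The other 2 Zap70 probe sets were dim on HFD and averaged higher in KO mice: one read 16.8, 10.9 and 12.2 in KO mice against 2.69, 3.54 and 2.6 in WT mice. With the mean of the 3 probe sets the difference was log2 0.54 (adjusted p = 0.366), and without the filter the adjusted p was 0.0520. The direction of Zap70 in fat is therefore not settled by these arrays.

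Over all 31 genes, fitted without the filter, 5 were called higher in KO fat on HFD and 0 lower, where 12.9% of all 18193 genes were called, 6.51% as higher. The fifth was Tbx21. Positive differences were seen for 25 of the 31 genes, and their median was log2 0.59 beside -0.02 for all genes. The median was 0.26 for T genes, 0.79 for NK genes and 1.003 for B genes. Of the T genes Cd8a (log2 -0.34 ± 0.47) and Ltb (log2 0.58 ± 0.48) passed the filter and were not called.

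**Figure D2:**
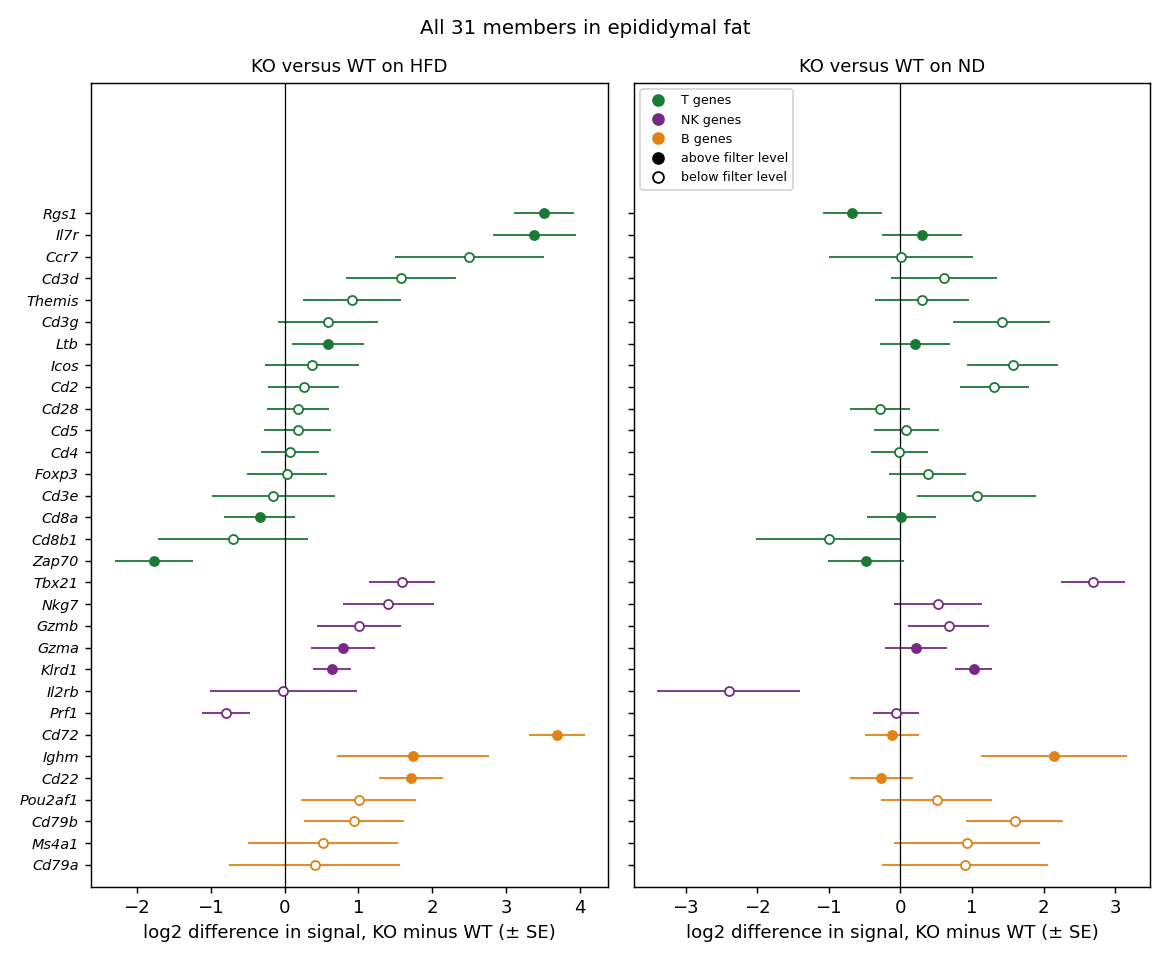
Log2 difference in signal, KO minus WT, with its SE for the 31 genes in epididymal fat on HFD (left) and on ND (right), from the limma fit without the filter, 3 mice a group. Filled points are genes above the filter level and open points genes below it. On HFD Cd72, Rgs1 and Il7r lie above 3, and on ND no gene was called.

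Leukocyte genes outside the list moved with these values. Of 9 pan-leukocyte genes tested, 9 were higher in KO fat on HFD, with a median of log2 1.80. Ptprc, the CD45 gene, read 1354, 1348 and 2043 in KO mice, against 358, 711 and 365 in WT mice. Of 16 macrophage genes tested 13 were higher, with a median of log2 2.03, among them Adgre1 (log2 2.24), and their summed signal was 19869 to 31168 in KO fat and 8372 to 13167 in WT fat. The dendritic cell genes Cd83 (log2 2.06) and Clec10a (log2 0.92) were higher and Zbtb46 (log2 -1.03) lower, of 6 tested. The mast cell gene Cpa3 (log2 2.34) and the neutrophil gene S100a8 (log2 2.37) were higher, of 3 tested. Of 6 endothelial genes 6 were lower, with a median of log2 -1.26 and a summed signal of 934 to 1411 in KO fat and 2884 to 3144 in WT fat, and of 6 adipocyte genes Lipe (log2 -1.24) and Pnpla2 (log2 -0.91) were lower. The Actb 3′ to 5′ signal ratio, a sign of RNA quality, was log2 0.62 to 0.80 in KO fat and 1.13 to 1.68 in WT fat. The part of these shifts in the rise of Cd72, Rgs1, Il7r and Cd22 was not tested. Without the fat arrays of mice 427 and 547 the same 5 genes were called.

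NK genes passed the test in neither direction in the filtered fit of KO and WT fat on HFD. Klrd1, which encodes the CD94 receptor chain, read 67.4, 44.8 and 44.0 in KO mice, against 33.3, 31.7 and 32.9 in WT mice. The groups did not overlap, and the log2 difference was 0.65 ± 0.25 (adjusted p = 0.0840). Gzma, the granzyme A gene, read 67.03, 50.8 and 23.9 in KO mice, against 31.01, 24.8 and 20.5 in WT mice. These groups overlapped, with a log2 difference of 0.79 ± 0.42 (adjusted p = 0.206). Tbx21, which encodes the factor T-bet of NK cells and type 1 T cells, read 17.6, 11.7 and 15.7 in KO mice, against 3.79, 5.96 and 5.28 in WT mice, all under the filter level. It was called in the fit without the filter (log2 1.59 ± 0.45, adjusted p = 0.0415). Nkg7, a cytotoxic granule gene, was higher in KO without overlap at 26.3 to 40.8, against 3.77 to 25.6 in WT mice. For Prf1, the perforin gene, the brighter probe set went the other way. It read 8.54 to 14.3 in KO mice, against 17.2 to 22.1 in WT mice. A second Prf1 probe set overlapped between the groups (log2 0.06), so the lower Prf1 signal rests on 1 probe set. Neither Nkg7 (adjusted p = 0.170) nor Prf1 (adjusted p = 0.141) was called.

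**Figure D3:**
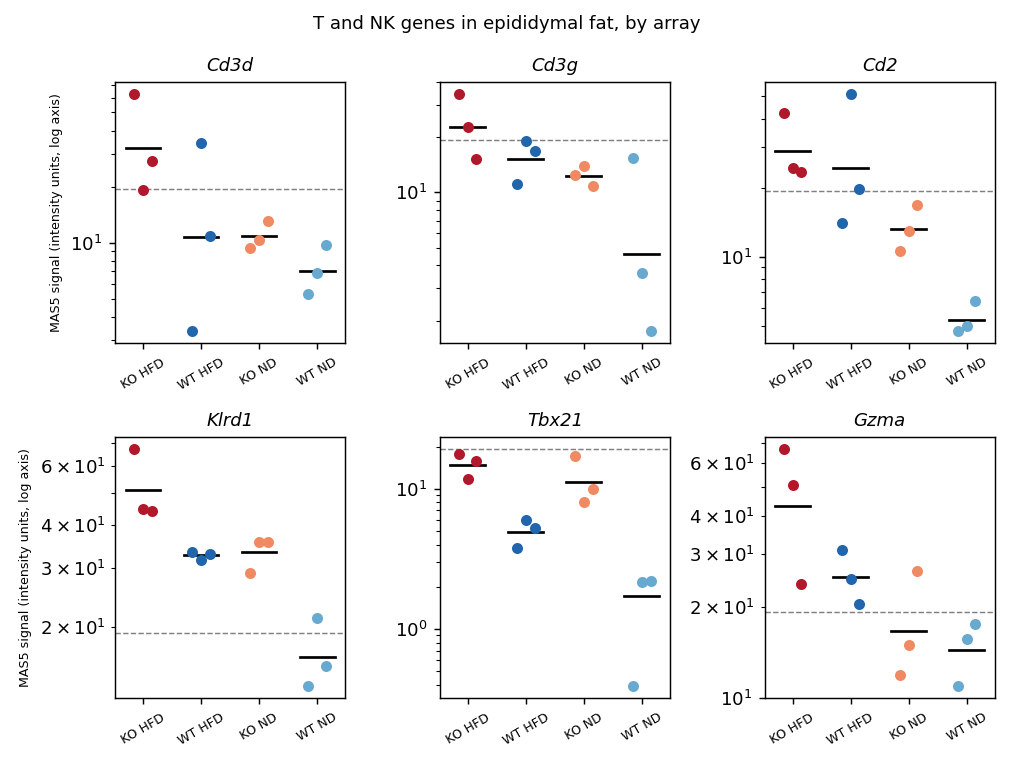
MAS5 signal (intensity units, log axis) of 3 T genes (Cd3d, Cd3g, Cd2) and 3 NK genes (Klrd1, Tbx21, Gzma) in epididymal fat, 1 point per mouse, black bars the geometric mean of 3 mice and the dashed line the filter level of 19.3. The T genes overlap between KO HFD and WT HFD mice, where WT mouse 547 is the highest WT point (34.4 for Cd3d and 51.4 for Cd2), while Klrd1 and Tbx21 do not overlap.

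On ND no listed gene differed between KO and WT fat by limma with Benjamini-Hochberg adjustment: 0 of 10 genes were called in the filtered fit and 0 of 31 without the filter, where 0.25% (0.215% higher, 0.0344% lower) and 0.11% (0.0824% higher, 0.0275% lower) of all genes were called. At an unadjusted p under 0.05 there were 1 of 10 and 6 of 31. The 4 genes that were higher in KO fat on HFD overlapped on ND. Rgs1 read 17.7, 16.4 and 30.15 in KO fat on ND, against 26.8, 55.3 and 23.97 in WT fat on ND. Il7r read 20.3, 29.5 and 30.6 in KO mice, against 12.4, 22.7 and 35.0 in WT mice. Cd72 read 25.8, 31.4 and 24.3 in KO mice, against 24.3, 28.2 and 36.8 in WT mice. Cd22 lay under the filter level in all 3 KO mice (8.84 to 18.2) and in 2 of 3 WT mice (10.6 to 23.0).

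KO and WT fat on ND did not overlap for the NK genes Tbx21 and Klrd1, higher in KO, and Il2rb, lower in KO. Tbx21 read 17.2, 8.04 and 9.98 in KO fat on ND, against 0.39, 2.17 and 2.20 in WT fat on ND. These lie under the filter level, and 1 WT value was raised to the floor of 1.08, so no size is given, and the gene was not called. Klrd1 read 28.9, 35.8 and 35.75 in KO mice, against 13.4, 21.4 and 15.4 in WT mice (log2 1.02 ± 0.25, adjusted p = 0.111). Klrd1 was called when WT mouse 687 was left out, which brought the count to 1. Il2rb read 0.90, 0.68 and 6.39 in KO mice, against 9.12, 12.4 and 9.70 in WT mice, under the filter level and not called. A second Il2rb probe set overlapped. The T and B genes Cd2, Cd3e, Icos, Cd79b and Ms4a1 were higher in KO without overlap, and no T or B gene was lower so. Icos separated only by 6.77 in the lowest KO mouse against 6.67 in the highest WT mouse. Its other probe sets overlapped (log2 -0.30 and -0.21), as did a second probe set of Ms4a1 (log2 0.98). These T and B genes did not pass the filter and were not called. Such separation was not counted over all genes.

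High-fat diet was compared with normal diet next, and these comparisons share their arrays with those of KO and WT. In WT fat 3 of the 10 genes tested were higher on HFD, Rgs1, Il7r and Klrd1, and 0 were lower. Of all genes 55.3% were called, 27.9% as higher and 27.4% as lower. Zap70 was counted by its brightest probe set (log2 0.30), while its other probe sets were lower on HFD, at log2 -4.41 and -4.82. Rgs1 read 72.4, 168 and 86.6 on HFD, against 26.8, 55.3 and 23.97 on ND (log2 1.63 ± 0.41, adjusted p = 0.00554). Il7r read 50.7, 213 and 62.5 on HFD, against 12.4, 22.7 and 35.0 on ND (log2 2.03 ± 0.55, adjusted p = 0.00878), and without mouse 547 the difference was log2 1.39 (adjusted p = 0.0299). Both genes were higher in every HFD mouse. Klrd1 was at least 1.69-fold higher, with WT ND arrays under the filter level on average (adjusted p = 0.00547). All 3 calls were lost when the ND fat arrays of mice 686 and 690 were left out, at log2 0.88 for Rgs1 (adjusted p = 0.213), 1.95 for Il7r (adjusted p = 0.0699) and 0.61 for Klrd1 (adjusted p = 0.146), a fit with 1 WT ND array, which is assumed to vary like the arrays of the other groups.

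Without the filter 6 of the 31 genes were higher on HFD in WT fat, where 41.9% of all genes were called, 18.1% as higher and 23.8% as lower. Beside the 3 above these were Cd2, a T cell adhesion receptor (log2 2.19 ± 0.48, adjusted p = 0.00409), Icos, a T cell costimulator (log2 1.76, adjusted p = 0.0459), and Tbx21 (adjusted p = 0.0198), whose ND values lay near the floor. Cd2 read 14.0, 51.4 and 19.8 on HFD, against 4.73, 4.98 and 6.41 on ND. Its ND values lay well under the filter level. The Icos call rests on 1 of its 3 probe sets, and the others gave log2 -0.59 and -0.04. The share of listed genes higher was close to the share of all genes higher in this comparison, in which 1 diet carried epididymis transcripts and the other did not. The Actb 3′ to 5′ signal ratio in WT fat was log2 0.88 to 0.92 on ND and 1.13 to 1.68 on HFD, and its part was not tested.

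In KO fat 6 of the 10 genes tested were higher on HFD and 0 lower. Of all genes 48.7% were called, 22.1% as higher and 26.6% as lower. Zap70 was not called by its brightest probe set (log2 -0.99), and its other probe sets were lower on HFD, at log2 -3.32 and -2.71. Rgs1 read 942, 977 and 1702 on HFD, against 17.7, 16.4 and 30.15 on ND, a 56.4-fold difference (log2 5.82 ± 0.41, adjusted p = 2.87e-06). Il7r read 559.6, 903 and 1508 on HFD, against 20.3, 29.5 and 30.6 on ND, a 34.7-fold difference (log2 5.12 ± 0.55, adjusted p = 3.47e-05). For both genes every HFD mouse lay far above every ND mouse. In the same comparison 15 of 16 macrophage genes (median log2 2.80) and 9 of 9 pan-leukocyte genes (median log2 2.84) were higher on HFD, and their part in the rise of the listed genes was not tested. Cd72 was 9.83-fold higher on HFD (log2 3.30 ± 0.36, adjusted p = 4.22e-05), and Cd22, whose ND arrays were under the filter level, at least 5.31-fold higher (adjusted p = 0.000187).

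Gzma and Ltb, which encodes lymphotoxin beta of lymphoid tissue formation, were higher in KO fat on HFD by smaller amounts. Gzma read 67.03, 50.8 and 23.9 on HFD, against 11.9, 14.9 and 26.35 on ND, so 1 ND mouse exceeded 1 HFD mouse, and it was at least 2.25-fold higher (adjusted p = 0.0195). Ltb read 68.0, 24.8 and 48.3 on HFD, against 17.6, 13.6 and 19.8 on ND, and was at least 2.25-fold higher (adjusted p = 0.0333). Both calls depend on single mice: Gzma was lost without 427, 428, 718 or 719, at log2 1.06 to 1.29 (adjusted p 0.0623 to 0.0784), and Ltb without 427, 429, 718, 719 or 720, at log2 1.05 to 1.49 (adjusted p 0.0535 to 0.112). Without the filter 7 of the 31 genes were higher, where 14.3% of all genes were, and these included Cd28, a T cell costimulator (log2 1.21, adjusted p = 0.0479), and Themis (log2 2.39, adjusted p = 0.0174).

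The genotype effect differed between the diets for 3 of the 10 genes, Rgs1, Cd72 and Il7r, where the interaction was called for 11% of all genes, for 3.76% in the positive and 7.2% in the negative direction. The KO minus WT difference was larger on HFD than on ND by log2 4.19 ± 0.57 for Rgs1 (adjusted p = 0.00343), 3.81 ± 0.52 for Cd72 (adjusted p = 0.00343) and 3.08 ± 0.78 for Il7r (adjusted p = 0.0296). Without the filter the same 3 of 31 genes were called, where 5.56% of all genes were, 1.94% positive and 3.62% negative. Cd22 had an interaction of log2 1.98 ± 0.60 and missed the threshold (adjusted p = 0.0573). Rgs1 and Cd72 were called in all 18 alternatives run, and Il7r was lost without any 1 of mice 429, 546, 560, 690, 718, 719 and 720, at log2 2.69 to 3.19, and was log2 3.72 without mouse 547. The interactions of Klrd1 (log2 -0.38, adjusted p = 0.513) and, without the filter, Tbx21 (log2 -1.10, adjusted p = 0.336) were not called.

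Several B cell and plasma cell genes overlapped between KO and WT fat on HFD. Ms4a1, the CD20 gene, read 120.03, 6.64 and 54.9 in KO fat on HFD, against 11.85, 102 and 12.3 in WT fat on HFD. Cd79b, a signalling chain of the B cell receptor, read 74.9, 17.3 and 42.7 in KO mice, against 11.9, 49.8 and 13.1 in WT mice. Pou2af1, a coactivator of B cell transcription, read 54.8, 10.8 and 36.7 in KO mice, against 6.38, 46.1 and 9.17 in WT mice. For all 3 genes mice 427 and 429 of the KO group and mouse 547 of the WT group were high and the other 3 low.

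Ighm, the IgM heavy chain gene, read 3160.2, 1836 and 3950 in KO fat on HFD, against 177, 3044 and 1145 in WT fat on HFD. Mouse 547 again lay in the KO range, and the log2 difference of 1.74 ± 1.01 was not called (adjusted p = 0.245). On ND Ighm read 1553, 1521 and 1789 in KO fat, against 173, 164 and 1727 in WT fat, so WT mouse 690 matched the KO mice and the other 2 did not (log2 2.14 ± 1.01, adjusted p = 0.372). 2 plasma cell genes that are not on the list followed the same mice. Jchain, which joins IgM and IgA units, read 741, 138 and 922 in KO fat on HFD, against 30.9, 999.8 and 128 in WT fat on HFD. Mzb1, a chaperone of antibody secretion, read 97.4, 24.1 and 136 in KO mice, against 23.1, 102 and 25.6 in WT mice.

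**Figure D4:**
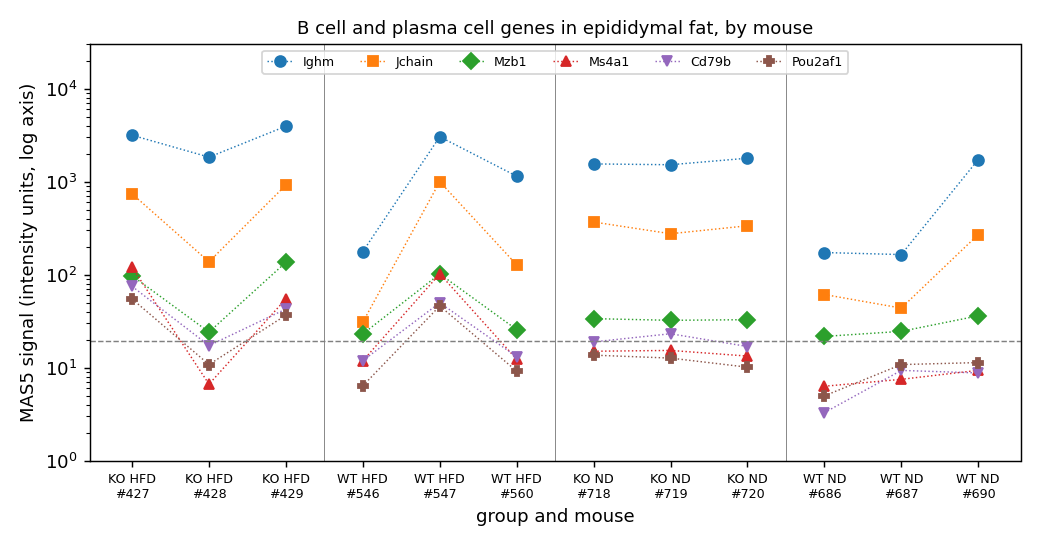
MAS5 signal (intensity units, log axis) of Ighm, Jchain, Mzb1, Ms4a1, Cd79b and Pou2af1 in epididymal fat of each of 12 mice, with the dashed line at the filter level of 19.3 and dotted lines joining mice of a group for reading only. Mice 427, 429 and 547 are high for all 6 genes among HFD mice, and mouse 547 is a WT mouse (Ms4a1 102 against 11.85 and 12.3 in the other WT HFD mice).

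Related genes were read from lists that do not hold the 31 genes. Of 11 B cell and plasma cell genes tested in fat on HFD, KO mice had 4 called higher and 1 called lower. Of all genes 11.1% were called higher and 11.4% lower. The lower gene was Ebf1, at 372, 328 and 259 in KO mice, against 712, 668 and 763 in WT mice. Whether the Ebf1 signal came from B cells was not tested. The interaction by limma was negative for Ebf1 (log2 -1.92, adjusted p = 0.0134). It was positive for Sdc1 (log2 1.18, adjusted p = 0.0356) and for Blnk, an adaptor of the B cell receptor (log2 2.24, adjusted p = 0.00330). For all genes it was called positive in 3.76% and negative in 7.2%. On HFD Blnk read 898, 879 and 1387 in KO mice, against 191, 253 and 239 in WT mice (log2 2.19 ± 0.20, adjusted p = 0.000209). Btk, the kinase of the same pathway, was higher by log2 1.78, Cd180 by 1.43 and Sdc1 by 1.58, and the list's median was 0.80. Of these 4, Btk, Blnk and Cd180 are also used by myeloid cells, and Sdc1 by epithelia. In contrast to Jchain and Mzb1, all 4 were higher in each KO mouse than in each WT mouse on HFD.

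Of 6 tested T cell partners 2 were higher in KO fat on HFD, the adaptors Skap1 (log2 0.96, adjusted p = 0.0119) and Lcp2 (log2 1.08, adjusted p = 0.0256). Skap1 read only 11.6 to 20.4 in KO mice and 7.39 to 8.56 in WT mice on HFD, and it read 145 to 153 in KO mice and 102 to 138 in WT mice on ND, the diet whose fat arrays carried epididymis transcripts. Lef1 and Gata3 were likewise high on ND, where Gata3 read 130 to 218 in KO mice and 179 to 225 in WT mice. On HFD Gata3 was as high in KO mouse 427, at 224.6, the HFD fat array with the highest epididymis and sperm sum (3626). Gata3 read 1.30 and 8.32 in the other KO mice and 1.05 to 6.19 in WT mice on HFD. None of the 19 NK receptor genes with a probe set passed the filter in fat.

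Of 14 lymphocyte chemokines, cytokines and homing receptors tested in fat on HFD, KO mice had 7 called higher and 0 called lower, with a median of log2 0.65. Among all genes 11.1% were called higher and 11.4% lower. Cxcl16, which draws cells bearing CXCR6, rose by log2 1.24 (adjusted p = 0.00311), Cxcl12 by 0.92 (adjusted p = 0.00467), Il18 by 0.97 (adjusted p = 0.0117) and the receptor Cxcr4 by 1.01 (adjusted p = 0.0178). On ND 0 of the 14 were called, where 0.25% of all genes were. The genotype by diet interaction was also called for 0 of the 14, where 11% of all genes were called, so a difference between the diets was not shown. In KO fat 10 of the 14 were higher on HFD than on ND and 1 was lower, where 22.1% of all genes were higher, and in WT fat 5 were higher, a share near the 27.9% of all genes, led by Cxcl9, a T cell attractant induced by interferon gamma (log2 4.35, adjusted p = 4.79e-05).

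In liver 3 of 13 genes tested were higher in mice labelled KO than in those labelled WT on HFD, Themis, Rgs1 and Cd72, and 0 were lower, where 6.71% of all 11125 genes were called, 3.73% as higher and 2.98% as lower. Without the filter 2 of 31 were called, where 3.01% of all genes were. Rgs1 and Cd72 were thus higher in KO mice in both tissues, and Il7r was under the filter level on average in liver.

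Themis, a T cell protein that tunes receptor signalling during thymic selection, read 147, 145 and 142 in KO liver on HFD, against 12.4, 18.4 and 1.55 in WT liver on HFD. The 3 KO mice were close together. WT mice 546 and 547 lay around the filter level of 13.0, and WT mouse 560 lay near the floor of 1.10. Themis was at least 11.2-fold higher (log2 4.35 ± 0.83, adjusted p = 0.00861) and was called in all 11 alternatives run, but its size was not stable: the mean of its 4 probe sets gave log2 2.10 (adjusted p = 0.00775), leaving out WT mouse 560 log2 3.26 and leaving out WT mouse 547 log2 5.05. On ND it read 34.0, 56.5 and 28.2 in KO liver, against 15.7, 2.12 and 10.8 in WT liver, also without overlap but not called (log2 2.42 ± 0.83, adjusted p = 0.115). The other 3 Themis probe sets read 3.19 to 30.4 in KO liver and 0.65 to 16.1 in WT liver on HFD. Of the other 16 T genes in the same 3 KO livers, Zap70, Rgs1 and Icos (17.9 to 23.9) were above the filter level on every array and Cd8a on 2 of 3 (12.2 to 21.4). Cd3e (18.6) and Cd3g (15.8) exceeded it in mouse 428 and Il7r (16.2) in mouse 429, and the other T genes, Cd3d (0.81 to 2.73) and Cd4 (3.36 to 4.0) among them, stayed under it.

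Rgs1 read 257, 49.2 and 182 in KO liver on HFD, against 44.8, 28.9 and 33.5 in WT liver on HFD, a 3.76-fold difference (log2 1.91 ± 0.45, adjusted p = 0.0234). KO mouse 428 lay just above the WT range, and without it the difference was log2 2.62. On ND the order turned: Rgs1 read 57.0, 41.6 and 59.1 in KO liver, against 136, 169.9 and 126 in WT liver (log2 -1.46 ± 0.45, adjusted p = 0.0815, not called). The genotype effect differed between the diets by log2 3.37 ± 0.63 (adjusted p = 0.0280), the 1 interaction called of 13 genes, where 0.989% of all genes were called. It was log2 4.08 without KO mouse 428 and was lost without any 1 of mice 427, 429, 547, 687, 718, 719 and 720, at log2 2.89 to 3.46.

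Cd72 read 50, 46.7 and 46.2 in KO liver on HFD, against 25.5, 18.6 and 17.55 in WT liver on HFD, a 2.35-fold difference (log2 1.23 ± 0.29, adjusted p = 0.0251). The groups did not overlap. Without the filter the adjusted p was 0.0607, and the call was lost without 427, 428, 429, 547 or 560, at log2 1.13 to 1.25. The call for Rgs1 on HFD was lost without 427 (log2 1.43), 429 (log2 1.68) or 547 (log2 1.77). The brightest Zap70 probe set read 169, 236 and 93.6 in KO liver on HFD, against 152, 176 and 119 in WT liver, and these groups overlapped.

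**Figure D5:**
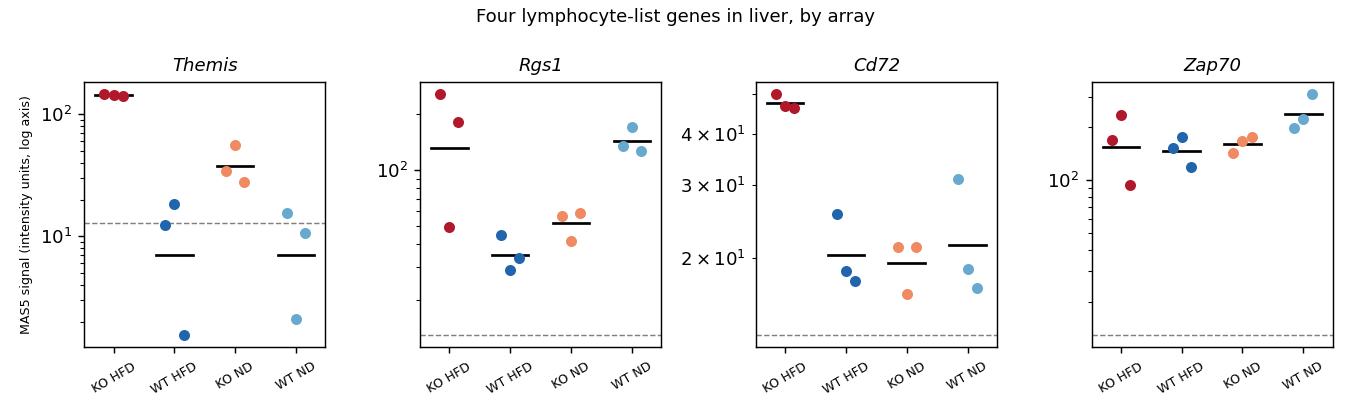
MAS5 signal (intensity units, log axis) of Themis, Rgs1, Cd72 and Zap70 in liver, 1 point per mouse, black bars the geometric mean of 3 mice and the dashed line the filter level of 13.0. The 3 KO HFD points of Themis (142 to 147) and Cd72 (46.2 to 50) lie above all other points, and Rgs1 is high in WT ND mice and low in WT HFD mice.

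Of the other leukocyte genes in liver on HFD, Ptprc read 315, 384 and 262 in KO mice, against 162, 212 and 156 in WT mice (log2 0.86, adjusted p = 0.0390), and 3 of 16 macrophage genes were higher in KO mice, Cd68, Lyz2 and Fcgr1. The summed macrophage signal was 6847 to 7959 in KO mice and 5149 to 6319 in WT mice, and the Actb 3′ to 5′ ratio was log2 1.69 to 1.71 in KO mice and 1.99 to 2.09 in WT mice. Their part in the liver differences was not tested. Of 13 chemokine and cytokine genes tested, Cxcl10, a T cell attractant, was the 1 called: it read 129.98, 107 and 92.0 in KO mice, against 40.2, 32.98 and 26.01 in WT mice (log2 1.74 ± 0.34, adjusted p = 0.01003). Of 8 B cell and plasma cell partners tested in liver, 0 were called by limma in any of the 5 liver comparisons. Of all genes 0.989% to 16.5% were called in these. Igha, the IgA heavy chain gene, is on none of the lists and was picked after its values were seen. Its brightest liver probe set read 15.8, 20.9 and 5.02 in KO liver on HFD, against 82.75, 117 and 69.9 in KO liver on ND (log2 -2.89 ± 0.49, adjusted p = 0.00206), and its other 2 probe sets ran the same way. Against WT liver on HFD, which read 41.65, 22.3 and 26.85, the KO values were lower without overlap but not called (log2 -1.30 ± 0.49, adjusted p = 0.128).

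On ND 0 of 13 genes were called between KO and WT liver by limma, where 4.71% of all genes were (2.22% higher, 2.49% lower), and 3 of 13 had an unadjusted p under 0.05. Without the filter 0 of 31 were called, where 2.12% of all genes were (0.951% higher, 1.17% lower). Ighm read 48.85, 53.4 and 42.8 in KO liver, against 70.55, 83.5 and 78.2 in WT liver (log2 -0.68 ± 0.20, adjusted p = 0.0664). Liver Ighm was read by another of its 11 probe sets than fat Ighm. With diet, Rgs1 fell in WT liver, to 28.9 to 44.8 on HFD, against 126 to 169.9 on ND (log2 -2.02 ± 0.45, adjusted p = 0.0115), the 1 gene of 13 called, where 12.5% of all genes were called and 6.04% as lower. In KO liver Cd72 was higher on HFD at 46.2 to 50, against 16.3 to 21.2 on ND (log2 1.29 ± 0.29, adjusted p = 0.0101), the 1 gene of 13, where 16.5% were called and 9.16% as higher. Rgs1 (log2 1.35, adjusted p = 0.0552) and Themis (log2 1.94, adjusted p = 0.131) were not called there. The Actb 3′ to 5′ ratio in liver also separated by diet. It was log2 1.11 to 1.25 on ND and 1.99 to 2.09 on HFD in WT mice. In KO mice it was 1.24 to 1.34 on ND and 1.69 to 1.71 on HFD. Its part in the diet differences was not tested.

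Fat and liver of WT mice on HFD were compared on the 8 genes that passed in both tissues. 3 were higher in fat, Ighm, Klrd1 and Rgs1, and 0 in liver, where 65.3% of all 10119 genes were called and 39.3% as higher in fat. Klrd1 read 31.7 to 33.3 in fat and 6.47 to 19.9 in liver (log2 1.32 ± 0.34, adjusted p = 0.00203). Rgs1 read 72.4 to 168 in fat and 28.9 to 44.8 in liver (log2 1.54 ± 0.46, adjusted p = 0.00618). Ighm differed by log2 3.47 ± 1.16 (adjusted p = 0.0124), and this was not stable: without the fat array of mouse 547 it was 2.56 (adjusted p = 0.0815), without that of mouse 546 4.61, and averaged over its probe sets 1.20 (adjusted p = 0.0702). Without the filter 7 of 31 genes were higher in fat, where 28.1% of all genes were, Il7r, Ltb, Cd28 and Cd2 in addition.

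The effect of the knockout on HFD was larger in fat than in liver for 1 of the 8 genes, Cd72, by log2 2.46 ± 0.46 (adjusted p = 0.00189), where 12.7% of all genes were called and 5.32% in that direction. With mouse as a replicate block, since each mouse gave both tissues, Cd72 (log2 2.46 ± 0.51, adjusted p = 0.01001) and Zap70 (log2 -1.85 ± 0.51, adjusted p = 0.0349) were called, 2 of 8. The Zap70 value rests on the 1 probe set that disagrees with the other 2 in fat. For Rgs1 the difference of 1.60 ± 0.65 was not called (adjusted p = 0.114), nor for Cd22 (log2 1.67 ± 0.80, adjusted p = 0.181). Themis went the other way without the filter, by log2 -3.44 ± 1.16 (adjusted p = 0.0893).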

How the data were processed

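Total RNA of fat and liver was hybridised to Affymetrix arrays (24 arrays, 12 mice). The deposited values are signal intensities from MAS5, per the submitters' processing notes, with no version given in the sources used here. They are linear, and the trimmed mean (2% off each end) of the probe sets is 100.03 to 100.051 on every array. No column was left out (0), and the detection calls were left unused.

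Of 45101 probe sets 64 controls were dropped, and 34945 had exactly 1 gene symbol, 932 several. In each tissue signals under the 10th percentile (1.08 in fat, 1.10 in liver) were set to that value before taking log2. The probe set of highest mean log2 stood for each gene. Genes at or above the mean of the median probe set were tested (11613 in fat, 11125 in liver, 10119 in both). Group means were fitted per tissue over 12 arrays (8 residual degrees of freedom, prior 3.16 in fat and 5.24 in liver), or over all 24 for comparisons of tissues, by limma 3.58.1 in R 4.3.3 with a variance trend. The procedure was tested on simulated data. Where the dimmer group averaged under the filter level, a fold is given as at least the brighter geometric mean over that level.

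The members and all lists were chosen with earlier results of these data known. Values on every array are given for members called in a comparison of that tissue and for the brightest T, NK and B gene, other members by ranges and counts, related lists by counts and up to 4 called genes of smallest p. Other genes and arrays named were picked after their values were seen. The same animal gave both tissues, so mouse was a block in an alternative fit: the 2 arrays of each animal, centred on their groups, had correlations of 0.0335 to 0.125, over 0.1 in 4 of 12 mice. The analysis was also repeated with quantile normalization, without the filter, keeping the smallest values unfloored, averaging all probe sets per gene, with the compared groups alone, and leaving out 1 array or the fat arrays of mice 427 and 547, or 686 and 690. RefSeq start-site windows (GRCm38.p6) were matched by symbol.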

Additional observations from a re-analysis of the deposited data

Results flagged for a closer look

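In fat the genotype effect differed between the diets by a test of the difference itself for 3 genes: KO minus WT was larger on HFD than on ND by log2 4.19 for Rgs1 (adjusted p = 0.00343 by limma), 3.81 for Cd72 (adjusted p = 0.00343) and 3.08 for Il7r (adjusted p = 0.0296). On HFD all 3 were higher in 3 of 3 KO mice than in any WT mouse, and on ND the groups overlapped for each. Without WT mouse 547 the Il7r difference was log2 3.72. The summed macrophage signal of the same fat arrays was 19869 to 31168 in KO mice and 8372 to 13167 in WT mice on HFD, and 4592 to 5786 in KO mice and 3180 to 4070 in WT mice on ND.

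In liver the genotype effect on Rgs1 differed between the diets by log2 3.37 (adjusted p = 0.0280). Every KO mouse was above every WT mouse on HFD, and every KO mouse was below every WT mouse on ND.

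The genotype effect on Cd72 on HFD was larger in fat than in liver by log2 2.46 (adjusted p = 0.00189), with 3 of 3 KO mice above the WT mice in each tissue.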

How the results depend on the processing

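Counts are of listed genes called by limma. Leaving out 1 array moved the count for KO and WT on HFD in fat between 3 and 5 (5 with all arrays) and in liver between 1 and 3 (3), for KO and WT on ND in fat between 0 and 1 (0), for HFD and ND in WT fat between 3 and 5 (3), in KO liver between 1 and 2 (1), for the liver interaction between 0 and 1 (1) and for the genotype effect in fat minus liver between 1 and 2 (1). HFD against ND in WT fat gave 6 after quantile normalization, 6 without the filter and 0 without mice 686 and 690 (1 array left in that group, its spread taken from the others), against 3. Quantile normalization also moved the median of all genes there to log2 0.10, against -0.03, and in fat against liver to 0.03, against 0.19. Without the filter fat against liver gave 7, against 3. The compared groups alone gave 1 gene, Rgs1, for KO and WT liver on ND, against 0, and 2 genes, Cd72 and Themis, for HFD and ND in KO liver, against 1, where averaging all probe sets per gene also gave 2. For the genotype effect in fat minus liver, quantile normalization gave 2 and the mouse as replicate block 2, against 1. The block changed no other count. Zap70 in KO and WT fat on HFD reversed to log2 0.54 with the mean of its probe sets, 2 of which were dim on HFD and ran opposite. For the other moves the cause was not tested. In all, 125 recomputed counts stayed within 1.5 times, and 30 did not. Of the called genes' values 295 kept direction and call, 49 lost the call and 1 reversed. Signals near the filter level, as for most T cell genes, set what these arrays can show.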

Other observations

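Cxcl13, the chemokine that draws B cells, was picked after its values were seen. It read 215, 61.1 and 268 in KO fat on HFD, against 31.2, 786 and 65.8 in WT fat on HFD, so that it was high in mice 427, 429 and 547, the same mice in which Ms4a1, Cd79b, Pou2af1 and Jchain were high. The T cell genes Cd2 and Ltb were also highest in mouse 547 among WT mice on HFD, at 51.4 against 14.0 and 19.8 for Cd2, and at 60.2 against 17.2 and 23.4 for Ltb. Mouse 547 had the highest pan-leukocyte sum of the 3 WT fat arrays on HFD, 3949 against 1799 and 2100, and in KO fat on HFD mouse 427, with high B cell genes, had the lowest pan-leukocyte sum, 6797 against 7402 and 11778. In liver on HFD Jchain read 21.5, 25.6 and 30.8 in KO mice, against 32.9, 41.1 and 30.7 in WT mice, with mouse 547 again the highest but by less.

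Cxcl9 and Cxcl10, which draw T and NK cells, were higher on HFD than on ND in KO liver (log2 1.84 and 2.19, adjusted p = 0.0224 and 0.00131 by limma). In fat, Cxcl9 read 414, 301 and 163 in KO mice, against 669, 614 and 436 in WT mice on HFD, and Cxcl10 read 67.7, 47.2 and 42.2 in KO mice, against 20.0, 21.9 and 21.7 in WT mice.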
